A study of Homo sapiens with 6 samples.

Results

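The genes described here are 10 members of the YAP and TEAD pathway, the transcriptional arm of Hippo signalling, taken by name from the tables of 6 RNA sequencing libraries: YAP1, WWTR1, TEAD1, TEAD3, TEAD4, AMOTL2, ANKRD1, AXL, LATS2 and AJUBA. All 10 were among the 58735 genes in the tables and among the 16340 with enough counts to be tested. The libraries came from A549, a human lung adenocarcinoma cell line, grown in RPMI 1640 with 10% FBS. The T133A group was stably infected with lentivirus carrying HOXB9 T133A, in which alanine takes the place of a threonine. The KO group was labelled as infected with lentivirus for a HOXB9 knockout, and the WT group carried unchanged HOXB9. Each group had 2 libraries. The labels do not say whether the knockout was made as a single clone, whether the cells' own HOXB9 gene was intact in the T133A and WT groups, or whether replicate libraries were grown as separate cultures, and no group had an empty vector. P-values therefore measure only the spread between these libraries, which may be technical.

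YAP1 and WWTR1 (which encodes TAZ) are coactivators that do not bind DNA on their own and reach their target genes through the TEAD transcription factors. The Hippo kinases LATS1 and LATS2 phosphorylate both coactivators, which keeps them out of the nucleus and marks them for degradation, and angiomotin proteins hold them in the cytoplasm or at cell junctions. Much of this control acts on the proteins, so transcript levels show only part of the pathway. ANKRD1, AXL, AMOTL2 and LATS2 are among the genes whose transcription YAP and TEAD are known to raise, and in lung adenocarcinoma the pathway is known for its part in growth, survival and drug resistance.

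Total counts ran from 16299059 to 18745432 per library. HOXB9, the altered gene, stood at 275 and 210 CPM (counts scaled to library size, after TMM scaling) in the T133A libraries, 14.5 and 15.4 CPM in KO, and 223 and 217 CPM in WT, so the KO libraries lay far below the others. Of 11 markers of a lung adenocarcinoma epithelial line, 8 averaged at least 1 CPM, and NKX2-1, SFTPB and SFTPC did not. The sum of these markers was 8954 to 10680 CPM in T133A, 7913 to 8888 CPM in KO and 10050 to 10540 CPM in WT, carried by KRT8 and KRT18, and single markers went strongly both ways. MUC5AC had 12.3 and 12.8 CPM in KO against 1394 and 1282 CPM in WT, EPCAM 1.94 and 1.72 CPM in KO against 14.5 and 16.95 CPM in WT, and KRT7 1926 and 1638 CPM in KO against 870 and 888 CPM in WT. Of 7 haematopoietic markers only CD14 and ITGAM averaged at least 1 CPM, with a sum of 14.1 to 17.8 CPM in T133A, 10.99 to 16.04 CPM in KO and 9.54 to 13.0 CPM in WT, and PTPRC had 1 count over the 6 libraries. Endothelial markers summed to at most 2.47 CPM in any library. Fibroblast markers, of which 4 of 7 averaged at least 1 CPM and DCN, PDGFRA and PDGFRB did not, summed to 42.9 to 43.0 CPM in T133A, 14.2 to 14.5 CPM in KO and 42.6 to 42.9 CPM in WT. The lower sum in KO lay in LUM (0.243 and 0.215 CPM in KO, 21.6 and 20.9 CPM in WT) and COL3A1 (0.0607 and 0.0538 CPM in KO, 13.3 and 13.4 CPM in WT), while COL1A1 (9.05 and 9.90 CPM in KO, 6.43 and 6.36 CPM in WT) and THY1 (4.74 and 3.55 CPM in KO, 0.76 and 0.613 CPM in WT) were higher in KO. Embryonic kidney line markers, 3 of 5 at 1 CPM or more, summed to 4.23 to 4.71 CPM in T133A, 7.22 to 7.86 CPM in KO and 3.57 to 4.02 CPM in WT. Mitochondrial transcripts took 8.91% and 8.51% of counts in T133A, 5.60% and 4.45% in KO, and 7.87% and 7.84% in WT. The T133A replicates differed in a way that followed GC content across genes (Spearman's rho 0.5 between GC content and the difference of replicate 1 from replicate 2, against -0.286 in KO and -0.18 in WT). GC content and length were corrected in alternative runs, and values from these are given below for part of the genes. The part of the other shifts in the results was not tested.

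TEAD proteins recognise the short element CATTCC, and YAP and TEAD often act together with AP-1, which binds TGANTCA. Promoter windows of 300 bases (250 before to 50 after a start site, RefSeq, GRCh38.p14) were matched for 8 of the 10 genes, 12 windows in all, and TEAD1 and TEAD4 were not matched. CATTCC, read on both strands, was present in 6 of these 12 windows, 1 each for YAP1, AMOTL2, ANKRD1, AXL, LATS2 and AJUBA, against 14.0% of 35116 windows of the same length. TGANTCA was present in 1 of the 12, that of ANKRD1, against 7.71% of all windows. A match is a stretch of letters and not evidence of binding. The 4 members shown are ones whose level differed in KO, each on the strand of the gene and with CATTCC, its reverse complement GGAATG and TGATTCA in capitals. For AMOTL2, AXL and AJUBA, which each had another window without the element, the window with it is given. In all of these genes the window without it covered the outer start of the gene as counted here. The window given belongs to a start further inside the gene. ANKRD1, at chr10:90921038-90921337, reverse strand, has the element 220 and 128 bases before the start and the AP-1 letters 195 bases before it, and AMOTL2, at chr3:134374398-134374697, reverse strand, has it 69 bases before. AXL, at chr19:41226505-41226804, forward strand, has it 212 bases before the start, and AJUBA, at chr14:22976793-22977092, reverse strand, 59 bases before.
ANKRD1: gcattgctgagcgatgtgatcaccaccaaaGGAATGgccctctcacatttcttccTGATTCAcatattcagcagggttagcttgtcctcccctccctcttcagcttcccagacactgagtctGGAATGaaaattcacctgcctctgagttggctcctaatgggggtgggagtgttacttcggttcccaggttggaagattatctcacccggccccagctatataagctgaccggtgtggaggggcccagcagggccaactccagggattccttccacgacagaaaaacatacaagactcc
AMOTL2: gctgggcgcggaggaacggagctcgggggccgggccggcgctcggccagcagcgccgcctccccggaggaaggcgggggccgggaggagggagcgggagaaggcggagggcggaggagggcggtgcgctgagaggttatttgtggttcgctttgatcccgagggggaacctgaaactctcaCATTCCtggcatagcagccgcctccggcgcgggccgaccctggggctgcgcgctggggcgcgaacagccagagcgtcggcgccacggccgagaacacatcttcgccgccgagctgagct
AXL: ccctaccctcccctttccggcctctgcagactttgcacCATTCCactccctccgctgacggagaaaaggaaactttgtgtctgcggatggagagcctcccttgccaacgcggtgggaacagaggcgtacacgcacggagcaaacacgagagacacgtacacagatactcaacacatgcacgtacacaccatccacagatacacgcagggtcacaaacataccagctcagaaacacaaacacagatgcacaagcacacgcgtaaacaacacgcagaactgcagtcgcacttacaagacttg
AJUBA: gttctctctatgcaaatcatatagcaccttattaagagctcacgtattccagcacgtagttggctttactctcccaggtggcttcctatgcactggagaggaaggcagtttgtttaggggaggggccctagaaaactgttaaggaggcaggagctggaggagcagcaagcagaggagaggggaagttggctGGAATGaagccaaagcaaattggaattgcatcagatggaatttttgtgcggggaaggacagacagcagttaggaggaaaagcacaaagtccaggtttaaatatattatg

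Across the 10 genes, 2 passed the test in T133A compared with WT (AXL higher, ANKRD1 lower), against 9.55% of all genes tested. In KO compared with WT 6 passed, against 46.6% of all genes: AXL, AMOTL2, TEAD4 and AJUBA were higher and TEAD1 and ANKRD1 lower. In T133A compared with KO 7 passed, against 39.9% of all genes, with YAP1, TEAD1 and TEAD3 higher and AXL, AMOTL2, AJUBA and TEAD4 lower. The test was edgeR's quasi-likelihood test in a fit of all 6 libraries, with p-values adjusted over all genes tested and a threshold of 0.05. The share of all genes called in KO compared with WT was 23.6% higher and 23.0% lower. Of the genes called in T133A compared with WT, 58.5% were higher, and 45.0% were when libraries were scaled by size only. The median log2 fold change of the 10 members was -0.06 in T133A compared with WT, -0.03 in KO compared with WT and -0.19 in T133A compared with KO, beside 0.0035, 0.001 and -0.0097 for all genes. The comparisons share libraries and are not independent of each other. In bulk libraries such as these, fewer cells with a transcript and less of it per cell cannot be told apart.

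**Figure D1:**
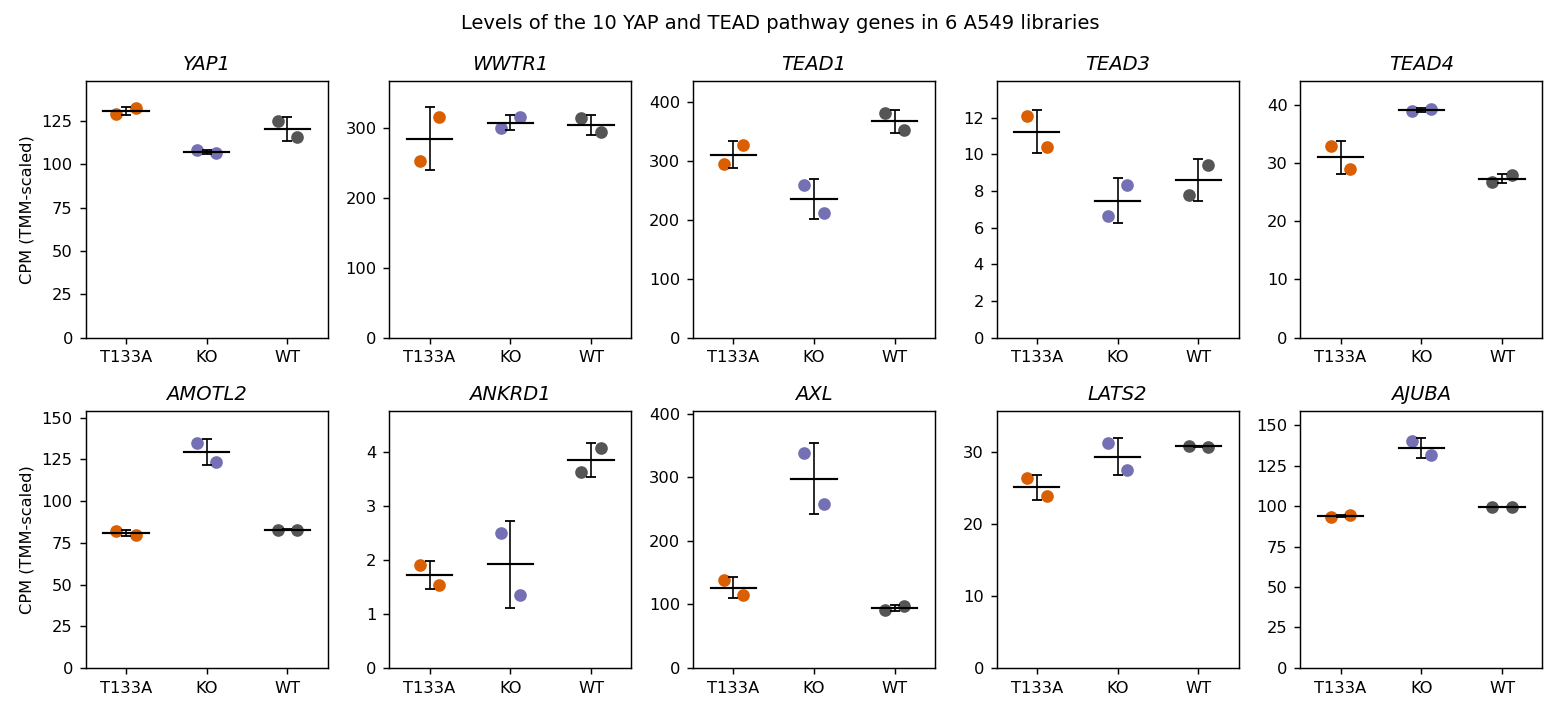
Level of each of the 10 genes, in CPM after TMM scaling on an axis from 0, in the 2 T133A, 2 KO and 2 WT libraries; points are libraries, the horizontal bar is the mean and the error bar the SD. AXL stands at 337 and 258 CPM in KO against 91.4 and 97.4 CPM in WT, while WWTR1 overlaps between all 3 groups.

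Neither coactivator transcript passed the test against WT, in T133A or in KO. WWTR1 (chromosome 3, 149517235 to 149736714, reverse strand, GRCh38) had 254 and 317 CPM in the T133A libraries, 300.2 and 316 CPM in KO, and 315 and 295 CPM in WT. The ranges overlapped between all groups, and the T133A pair spanned more than the difference between any means. Its log2 fold change was -0.10 in T133A compared with WT (95% interval -0.32 to 0.13, edgeR adjusted p = 0.657) and 0.01 in KO compared with WT (95% interval -0.21 to 0.24, edgeR adjusted p = 0.925). A correction for GC content and length brought KO compared with WT to 0.21 (edgeR adjusted p = 0.0367), and T133A compared with KO to -0.20 (edgeR adjusted p = 0.045), and neither passed when the replicate block was added to that correction (0.20, edgeR adjusted p = 0.0649, and -0.20, edgeR adjusted p = 0.0729). Uncorrected, T133A compared with KO stood at -0.11 (95% interval -0.34 to 0.12), and at -0.28 without T133A replicate 2 (edgeR adjusted p = 0.0244). YAP1 (chromosome 11, 102110461 to 102233423, forward strand) had 129 and 132 CPM in T133A, 108 and 106 CPM in KO, and 125 and 115 CPM in WT. The KO libraries were the lowest and the T133A libraries the highest, with no overlap between groups. T133A exceeded KO by 0.29 on the log2 scale (SE 0.101, edgeR adjusted p = 0.0288). That call was lost with the replicate number as a block (edgeR adjusted p = 0.074), with only the compared groups (0.0709), with no filter on low counts (0.0813), when WT replicate 1 or 2 was left out (0.0969 and 0.0992), without T133A replicate 2 (0.0511) and without KO replicate 1 or 2 (0.0807 and 0.0762). Compared with WT, YAP1 stood at 0.12 in T133A (95% interval -0.09 to 0.33) and -0.17 in KO (95% interval -0.38 to 0.04), and neither passed.

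On the FPKM scale deposited by the authors, which divides by gene length and so allows genes to be compared, WWTR1 lay above YAP1 in every library. WWTR1 averaged 33.6 ± 5.81 FPKM in T133A, 36.5 ± 2.02 in KO and 36.0 ± 1.84 in WT, and YAP1 20.6 ± 0.715 FPKM in T133A, 17.0 ± 0.139 in KO and 18.96 ± 1.15 in WT (SD, n = 2 each). WWTR1 made up 59.5% and 64.2% of the summed FPKM of the pair in T133A, 67.5% and 69.0% in KO, and 65.3% and 65.6% in WT. The 3 groups did not overlap in this share, with T133A lowest and KO highest.

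The TEAD factors moved in different directions in KO. TEAD1 (chromosome 11, 12674591 to 12944483, forward strand), the TEAD gene with the highest FPKM in every library, had 259 and 211 CPM in KO, against 381 and 353 CPM in WT. Its log2 fold change in KO compared with WT was -0.64 (SE 0.11, edgeR adjusted p = 5.41e-05), a level 1.56-fold lower. After the GC and length correction that value was -0.43 (edgeR adjusted p = 8.03e-05). The T133A libraries lay between, at 294 and 327 CPM, above KO (log2 fold change 0.40, SE 0.11, edgeR adjusted p = 0.00563) and below WT without passing (-0.24, SE 0.11, edgeR adjusted p = 0.189). Without KO replicate 2 the difference of T133A from KO was 0.27 (edgeR adjusted p = 0.0772), and without T133A replicate 2 that of T133A from WT passed at -0.31 (edgeR adjusted p = 0.0408).

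TEAD4 (chromosome 12, 2959330 to 3040673, forward strand), which is known as an early trophectoderm factor in the mouse embryo, had 38.9 and 39.3 CPM in KO, against 26.8 and 27.9 CPM in WT. It was higher in KO by 0.52 on the log2 scale (SE 0.126, edgeR adjusted p = 0.0018). That value was 0.25 (edgeR adjusted p = 0.0516) when GC content and length were corrected with the replicate number as a block, the only alternative run that ended the call other than a minimum log2 fold change of 1. T133A, at 33.0 and 28.99 CPM, lay below KO (log2 fold change -0.34, SE 0.125, edgeR adjusted p = 0.0361), and that difference shrank to -0.08 with the GC and length correction (edgeR adjusted p = 0.551). It also lost its call without any 1 of the libraries other than T133A replicate 1, with the replicate number as a block (edgeR adjusted p = 0.0701), with only the compared groups (0.0801) and with DESeq2 (adjusted p = 0.0576). TEAD3 (chromosome 6, 35473597 to 35497076, reverse strand) was the TEAD gene with the lowest FPKM in every library, and had 12.1 and 10.4 CPM in T133A, 6.62 and 8.34 CPM in KO, and 7.77 and 9.42 CPM in WT. T133A exceeded KO (log2 fold change 0.58, SE 0.187, edgeR adjusted p = 0.016), a call lost without T133A replicate 1 (0.49, edgeR adjusted p = 0.0707) or KO replicate 1 (0.40, edgeR adjusted p = 0.162). KO and WT overlapped (-0.20, 95% interval -0.59 to 0.20), with -0.45 after the GC and length correction (edgeR adjusted p = 0.0333).

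By summed FPKM, the TEAD family was made up differently in KO and WT. TEAD1 held 47.6% and 54.2% of the TEAD total in T133A, 48.1% and 40.8% in KO, and 61.8% and 58.1% in WT. TEAD4 held 24.2% and 21.8% in T133A, 32.7% and 34.4% in KO, and 19.7% and 20.8% in WT. The KO and WT libraries did not overlap in either share, which is a description of 2 libraries a group with no test. These shares were not corrected for GC content. With GC content and length corrected, KO compared with WT was smaller, at -0.43 for TEAD1 and 0.25 for TEAD4 on the log2 scale. The total itself was 58.9 and 58.8 FPKM in T133A, 51.5 and 51.0 FPKM in KO, and 59.7 and 58.5 FPKM in WT. TEAD2, which is not one of the 10 genes, held 21.7% and 18.2% in T133A, 15.1% and 19.4% in KO, and 14.3% and 15.9% in WT.

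**Figure D2:**
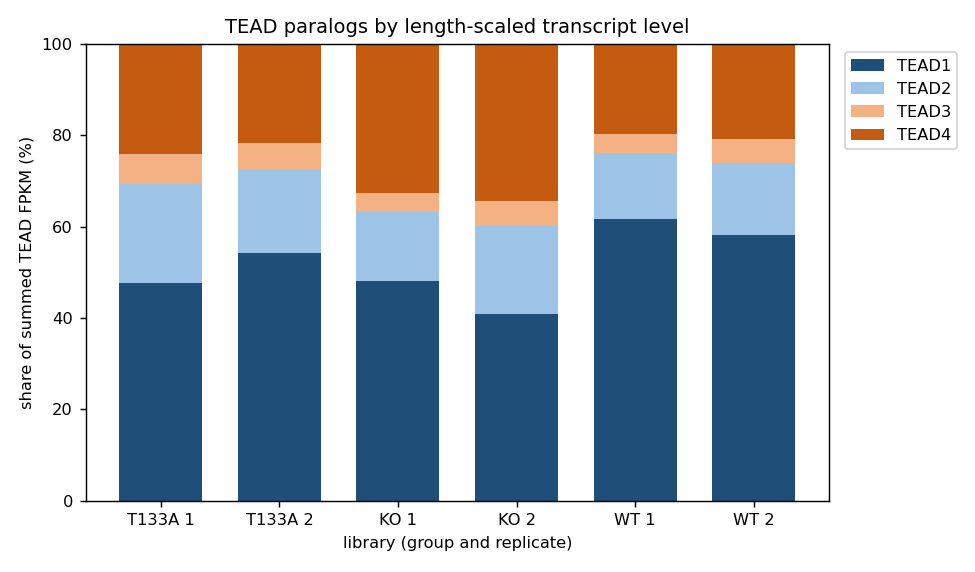
Share of the summed FPKM of TEAD1, TEAD2, TEAD3 and TEAD4 (%) held by each gene, by library, with T133A, KO and WT from left to right. TEAD4 takes 32.7% and 34.4% in KO and 19.7% and 20.8% in WT.

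A further 3 members restrain or tune the coactivators. AMOTL2 (chromosome 3, 134355874 to 134375479, reverse strand) encodes an angiomotin that binds YAP and is itself a target gene. It had 81.9 and 79.4 CPM in T133A, 135 and 124 CPM in KO, and 82.9 and 82.5 CPM in WT. The KO libraries stood above all others, 1.56-fold higher than WT (log2 fold change 0.64, SE 0.103, edgeR adjusted p = 2.43e-05), and T133A lay below KO (log2 fold change -0.68, SE 0.103, edgeR adjusted p = 1.52e-05). T133A and WT were close (-0.04, 95% interval -0.25 to 0.18). AJUBA (chromosome 14, 22971174 to 22982642, reverse strand) encodes a LIM protein that binds and inhibits LATS kinases. Its level was 93.5 and 94.4 CPM in T133A, 140 and 131 CPM in KO, and 99.4 and 99.2 CPM in WT. KO exceeded WT by 0.45 on the log2 scale (SE 0.101, edgeR adjusted p = 8.97e-04), and T133A lay below KO (-0.53, SE 0.101, edgeR adjusted p = 2.18e-04) and did not pass against WT (-0.08, 95% interval -0.29 to 0.13). AMOTL2 and AJUBA both rose in KO. Both calls in KO held in every alternative run except a minimum log2 fold change of 1. With the GC and length correction, KO compared with WT was smaller, at 0.45 for AMOTL2 and 0.32 for AJUBA.

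LATS2 (chromosome 13, 20973032 to 21061547, reverse strand), the kinase and also a YAP target, had 26.3 and 23.9 CPM in T133A, 31.2 and 27.5 CPM in KO, and 30.8 and 30.7 CPM in WT. T133A was lowest, and KO spanned the WT values. The log2 fold change in T133A compared with WT was -0.29 (SE 0.131, unadjusted p = 0.0356 by edgeR's test, adjusted p = 0.18), which among the alternatives run passed only with the GC and length correction (-0.36, edgeR adjusted p = 0.0247, and 0.0336 with the replicate block added). In KO compared with WT it was -0.07 (95% interval -0.34 to 0.20), and in T133A compared with KO -0.22 (95% interval -0.50 to 0.05).

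The 2 remaining members are classical target genes, and they went opposite ways in KO. AXL (chromosome 19, 41219203 to 41261766, forward strand) encodes a receptor tyrosine kinase for the ligand GAS6 and is linked to drug resistance in lung cancer. Its level was 337 and 258 CPM in KO, against 91.4 and 97.4 CPM in WT. KO was 3.15-fold higher (log2 fold change 1.66, SE 0.124, edgeR adjusted p = 2.43e-10), the largest difference among the 10 genes. In T133A AXL had 138 and 115 CPM, below KO (log2 fold change -1.24, SE 0.122, edgeR adjusted p = 2.85e-08) and 1.34-fold above WT (log2 fold change 0.42, SE 0.123, edgeR adjusted p = 0.0301). The last call was lost when WT replicate 1 or 2 was left out (edgeR adjusted p = 0.252 and 0.101), when T133A replicate 1 was (0.30, edgeR adjusted p = 0.129), under library size scaling alone (0.35, edgeR adjusted p = 0.0941) and once GC content and length were corrected (0.35, edgeR adjusted p = 0.0978). It passed when that correction was combined with the replicate block (0.34, edgeR adjusted p = 0.0333).

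ANKRD1 (chromosome 10, 90912096 to 90921276, reverse strand), a nuclear cofactor of muscle cells and one of the most used YAP readouts, had the lowest FPKM of the 10 genes. It was counted 33 and 26 times in T133A, 41 and 25 times in KO, and 62 and 73 times in WT, which is 1.90 and 1.53 CPM in T133A, 2.49 and 1.35 CPM in KO, and 3.62 and 4.07 CPM in WT. Both WT libraries stood above all 4 others. ANKRD1 was 2.24-fold lower in T133A than in WT (log2 fold change -1.16, SE 0.318, edgeR adjusted p = 0.0204) and 2.02-fold lower in KO than in WT (log2 fold change -1.02, SE 0.313, edgeR adjusted p = 0.0106), while T133A and KO overlapped (-0.15, 95% interval -0.86 to 0.57). At these counts the calls were fragile. In T133A compared with WT the call was lost with DESeq2 (adjusted p = 0.0697), without WT replicate 2 (edgeR adjusted p = 0.118) and without T133A replicate 2 (0.0656), and in KO compared with WT without WT replicate 2 (0.0644) and without KO replicate 2 (-0.64, adjusted p = 0.144).

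**Figure D3:**
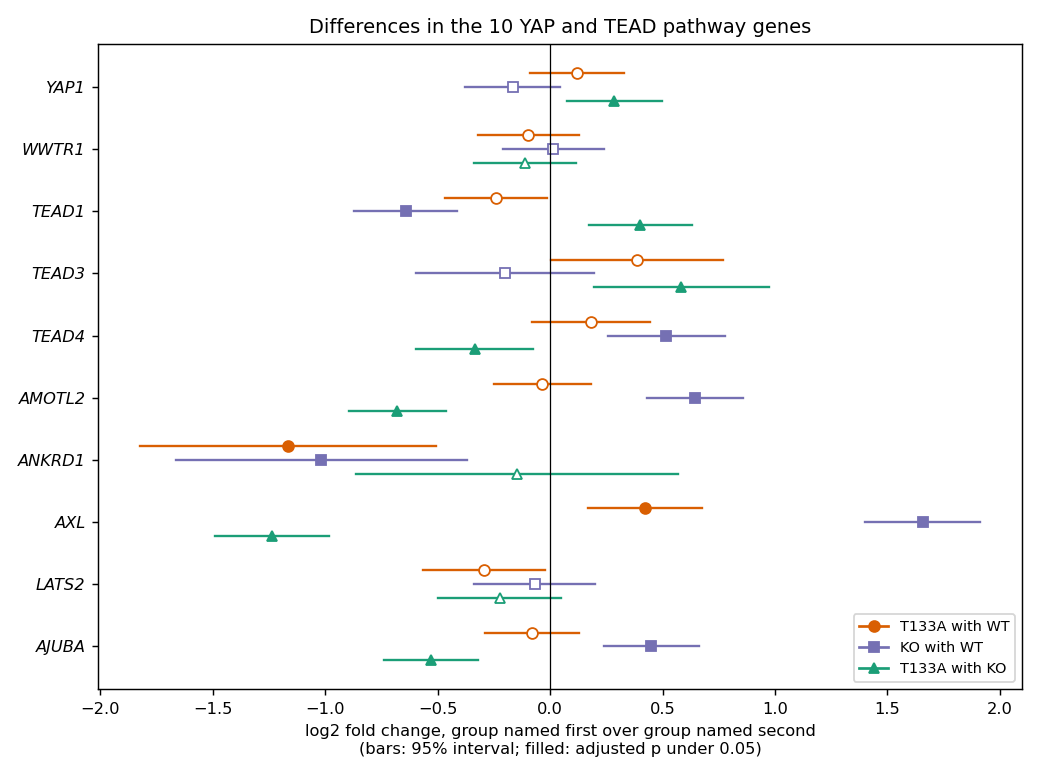
Log2 fold change of each of the 10 genes, with its 95% interval, for T133A over WT (circles), KO over WT (squares) and T133A over KO (triangles); filled symbols passed edgeR's test at an adjusted p of 0.05. Among the squares, AXL (1.66) lies farthest to the right and ANKRD1 (-1.02) farthest to the left.

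Groups of libraries that did not overlap were common throughout: 9 of the 10 genes in T133A and WT, 7 in KO and WT and 8 in T133A and KO had both libraries of one group above both of the other. Among all genes tested, 53.6%, 75.4% and 67.0% did so in these comparisons. TEAD1 and TEAD3 joined LATS2 in having an unadjusted p under 0.05 in T133A compared with WT (0.0387 and 0.0488) without passing after adjustment (edgeR adjusted p = 0.189 and 0.215).

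The wider set of YAP and TAZ targets was also divided. Of a published signature of 22 target genes, all tested, 9 rose and 6 fell in KO compared with WT by edgeR's test (median log2 fold change 0.18, beside 0.001 over all genes), against 23.6% and 23.0% of all genes. The matricellular genes CCN1 (listed as CYR61) and CCN2 (listed as CTGF), both textbook YAP targets, split. CCN1 had 67.3 and 51.8 CPM in KO, against 22.6 and 25.1 CPM in WT (1.32 on the log2 scale, SE 0.138, edgeR adjusted p = 5.74e-08). CCN2 had 26.6 and 23.1 CPM in KO, against 42.1 and 38.8 CPM in WT (-0.70 on the log2 scale, SE 0.128, edgeR adjusted p = 1.05e-04), and was chosen for mention after its values were seen. The promoter window of CCN2 held CATTCC 3 times. No window was matched for CCN1, so these genes cannot be compared in this.

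Beside AXL and AMOTL2, the signature genes that rose in KO included FJX1, a secreted growth regulator, at 66.8 and 64.2 CPM in KO against 25.2 and 26.8 CPM in WT, and the forkhead factor FOXF2 at 26.1 and 20.1 CPM in KO against 8.01 and 9.20 CPM in WT. Their log2 fold changes were 1.33 (SE 0.12) and 1.42 (SE 0.179). Those that fell included the largest changes of the list. CCDC80, a secreted matrix protein gene, had 25.0 and 21.0 CPM in KO, against 168 and 161 CPM in WT (-2.84 on the log2 scale, SE 0.116, edgeR adjusted p = 5.47e-15). NT5E, which encodes the surface ectonucleotidase CD73, had 49.7 and 34.7 CPM in KO, against 188 and 189 CPM in WT (-2.16 on the log2 scale, SE 0.13). IGFBP3, which binds insulin-like growth factors, stood at 384 and 376 CPM in KO, against 1101 and 1042 CPM in WT (-1.50 on the log2 scale, SE 0.123).

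The same signature in T133A compared with WT had 4 genes higher and 1 lower, against 5.58% and 3.97% of all genes, with a median of 0.02 beside 0.0035. The lower gene was ANKRD1. CCDC80 rose to 321 and 311 CPM in T133A, against 168 and 161 CPM in WT (0.94 on the log2 scale, SE 0.103, edgeR adjusted p = 9.23e-07). NUAK2, a kinase that takes part in YAP feedback, stood at 0.46 (SE 0.108, edgeR adjusted p = 0.00751) and IGFBP3 at 0.41 (SE 0.12, edgeR adjusted p = 0.0327), and AXL was the fourth. The NUAK2 and IGFBP3 calls were lost without either WT library. IGFBP3, at 1633 and 1209 CPM in T133A against 1101 and 1042 CPM in WT, was also not called with library size only (edgeR adjusted p = 0.0692) or without T133A replicate 1, where it stood at 0.19 (edgeR adjusted p = 0.356). Leaving out WT replicate 1, or WT replicate 2, left 1 signature gene called higher. In T133A compared with KO 5 were higher and 8 lower, against 20.3% and 19.6% of all genes (median -0.20 beside -0.0097), with CCDC80 13.8-fold higher (log2 fold change 3.78, SE 0.119) and CCN1 2.75-fold lower (log2 fold change -1.46, SE 0.139).

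**Figure D4:**
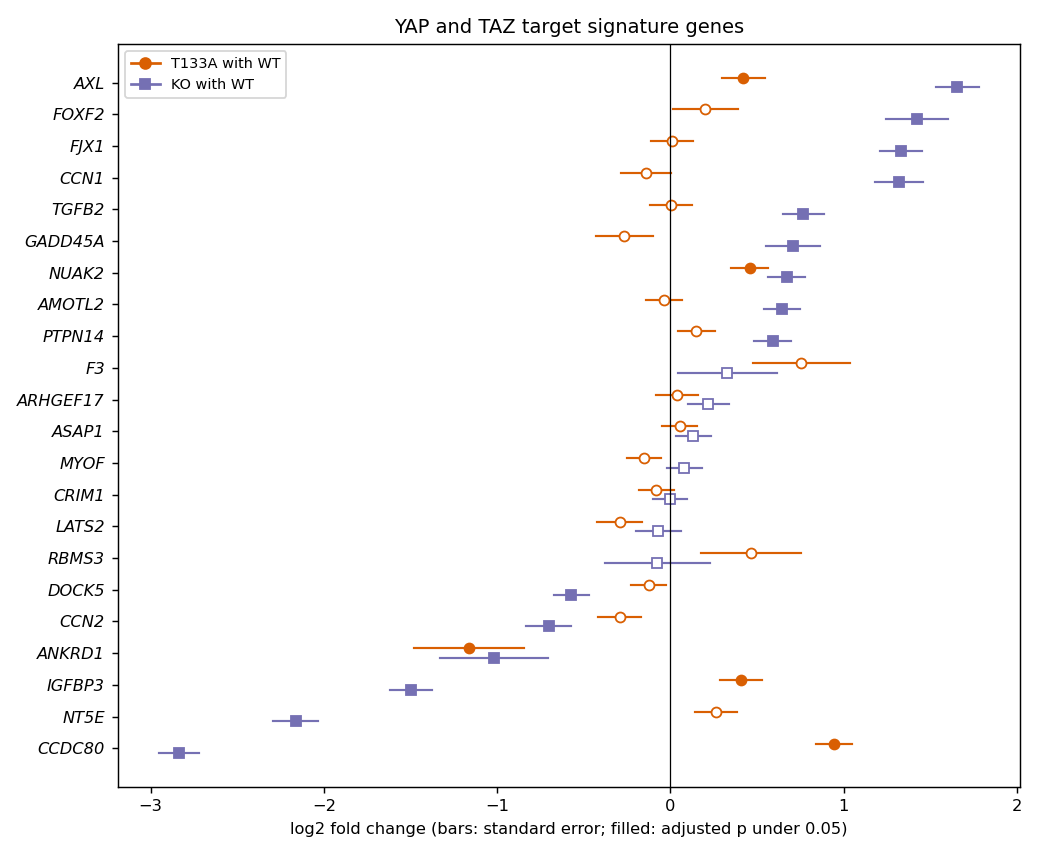
Log2 fold change of the 22 YAP and TAZ target genes in T133A with WT and in KO with WT, ordered by the value in KO, with standard errors; filled symbols passed edgeR's test at an adjusted p of 0.05. For KO, 9 filled symbols lie to the right of 0 and 6 to the left, from AXL at 1.66 to CCDC80 at -2.84.

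The list of the TEAD family and its partners held TEAD1 to TEAD4 and VGLL1 to VGLL4, so the members TEAD1, TEAD3 and TEAD4 are counted again here. Of its 8 genes 6 were tested, and VGLL1 and VGLL2 had at most 2 counts in any library. In KO compared with WT 2 were higher (TEAD4 and VGLL4) and 2 lower (TEAD1 and VGLL3), against 23.6% and 23.0% of all genes. VGLL3, a TEAD cofactor, had 9.47 and 9.63 CPM in KO, against 26.8 and 22.6 CPM in WT (-1.37 on the log2 scale, SE 0.153, edgeR adjusted p = 1.62e-07). VGLL4, a TEAD-bound repressor of YAP activity, had 38.1 and 46.4 CPM in KO, against 31.9 and 31.0 CPM in WT (0.43, SE 0.133, edgeR adjusted p = 0.0113), a call lost without KO replicate 2 or either WT library. In T133A compared with WT 0 of the 6 passed by edgeR's test, against 4 with an unadjusted p under 0.05 (TEAD1, TEAD2, TEAD3 and VGLL3), 0 called by DESeq2 and 1 by limma-voom. VGLL4 stood at -0.01 there (edgeR adjusted p = 0.982). Set against KO, T133A had 4 higher, among them VGLL3 (1.79, SE 0.151) and TEAD2 (0.42, SE 0.141), and 2 lower, against 20.3% and 19.6% of all genes. Leaving out T133A replicate 1 or KO replicate 1 left 2 higher, and leaving out T133A replicate 2 or KO replicate 2 left 0 lower.

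The Hippo kinase core and its upstream regulators, 22 genes tested, had 6 higher and 4 lower in KO compared with WT (median -0.02 beside 0.001), near the 23.6% and 23.0% of all genes, and 4 higher and 2 lower without WT replicate 1. Most genes of the list act upstream of LATS, and the called genes with the smallest adjusted p follow. NF2, the scaffold merlin that recruits LATS to membranes, had 60.7 and 57.8 CPM in KO, against 30.9 and 33.5 CPM in WT (0.88 on the log2 scale, SE 0.119, edgeR adjusted p = 2.6e-06). The FERM protein gene FRMD6 had 30.9 and 27.8 CPM in KO, against 11.8 and 9.48 CPM in WT (1.47, SE 0.16, edgeR adjusted p = 1.16e-07). Giant cadherin genes split, with FAT1 at 495 and 521 CPM in KO against 791 and 775 CPM in WT (-0.62, SE 0.101, edgeR adjusted p = 2.57e-05), and FAT4 higher in KO (0.74, SE 0.167, edgeR adjusted p = 9.42e-04). RASSF1, a scaffold of the kinase cascade, was higher (0.82, SE 0.162) and TAOK3, a kinase upstream of the core, lower (-0.63, SE 0.128). Of the core kinase genes, LATS1 stood at -0.17 and did not pass (edgeR adjusted p = 0.335). STK3 was called lower (-0.37, SE 0.136, edgeR adjusted p = 0.0282), and STK4 did not pass (-0.12, edgeR adjusted p = 0.35).

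The kinase list had 3 of 22 genes higher in T133A compared with WT, against 5.58% of all genes. SAV1, the scaffold of the MST kinases, had 49.2 and 56.8 CPM in T133A, against 36.8 and 29.5 CPM in WT (0.68 on the log2 scale, SE 0.131, edgeR adjusted p = 0.00121), a call lost without WT replicate 2. MAP4K4, which phosphorylates LATS (0.35, SE 0.103, edgeR adjusted p = 0.03), and FAT1 (0.33, SE 0.1, edgeR adjusted p = 0.0363) lost their calls with the replicate block and with library size only, which left 1 gene called higher. The list had 1 called higher without WT replicate 1 or T133A replicate 1, and 0 without WT replicate 2. T133A compared with KO had 5 higher and 7 lower, against 20.3% and 19.6% of all genes, and 3 higher with the replicate block or without WT replicate 1, WT replicate 2 or KO replicate 1. SAV1 (0.92, SE 0.132) and FAT1 (0.96, SE 0.101) were among the higher and NF2 (-0.87, SE 0.119), FRMD6 (-1.16, SE 0.157) and FAT4 (-1.09, SE 0.171) among the lower genes. The core kinase genes STK3 (0.36, edgeR adjusted p = 0.0394) and STK4 (0.30, edgeR adjusted p = 0.0255) were also called higher. Whether these calls, and that of STK3 in KO compared with WT, held in the alternative runs was not examined gene by gene.

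Proteins that bind YAP and TAZ and keep them from the nucleus, 12 genes including the 14-3-3 family, had 6 higher in KO compared with WT, against 23.6% of all genes (median 0.21 beside 0.001). The 6 include AMOTL2, a member already described above. SFN, the epithelial 14-3-3 sigma, had 123 and 117 CPM in KO, against 51.7 and 54.4 CPM in WT (1.18 on the log2 scale, SE 0.111, edgeR adjusted p = 1.22e-08). The phosphatase gene PTPN14, which is also in the target signature, was higher by 0.59 (SE 0.106, edgeR adjusted p = 9.09e-05), and the 14-3-3 gene YWHAQ by 0.57 (SE 0.1, edgeR adjusted p = 7.53e-05). Not every call in the list was stable. YWHAB (0.24, edgeR adjusted p = 0.0457) lost its call with RLE scaling (0.0632), a minimum mean of 5 CPM (0.0871) and the replicate block (0.112). That call was also lost without WT replicate 1, WT replicate 2 or KO replicate 2, where YWHAB stood at 0.24, 0.24 and 0.22. YWHAE stood at 0.40 (edgeR adjusted p = 0.00218), and at 0.39 without WT replicate 1, where it was not called. In T133A the list had 1 gene higher than WT, against 5.58% of all genes. That gene was AMOT, the founding angiomotin, with 5.06 and 2.88 CPM in T133A, 0.971 and 0.484 CPM in KO, and 0.526 and 0.892 CPM in WT. Its log2 fold change was 2.47 in T133A compared with WT (SE 0.413, edgeR adjusted p = 2.59e-04) and 2.46 compared with KO (SE 0.413, edgeR adjusted p = 5.16e-05), from 88 and 49 counts in T133A against 9 and 16 in WT. T133A compared with KO had 1 higher and 5 lower in this list, AMOTL2 again among the lower, against 20.3% and 19.6% of all genes. Among the lower genes, YWHAE (-0.28, edgeR adjusted p = 0.0295) lost its call with only the compared groups (0.109) and with the replicate block (0.0784). It was also lost without WT replicate 1, WT replicate 2 or KO replicate 2, where YWHAE stood at -0.29, -0.29 and -0.25.

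Of the LIM protein genes listed with AJUBA (LIMD1, WTIP and ZYX), not every call was stable. All 4 genes passed edgeR's test as higher in KO than in WT, against 23.6% of all genes, and as lower in T133A than in KO, against 19.6%, with medians of 0.43 and -0.63 beside 0.001 and -0.0097. LIMD1, which like AJUBA inhibits LATS, stood at 0.36 in KO compared with WT (SE 0.103, edgeR adjusted p = 0.00617) and the adhesion protein gene ZYX at 0.51 (SE 0.111, edgeR adjusted p = 6.37e-04). Without WT replicate 1 or WT replicate 2 only 2 of the 4 were called in KO compared with WT. WTIP in that comparison (0.41, edgeR adjusted p = 0.0333) was also lost with DESeq2 (adjusted p = 0.0672), library size only (edgeR adjusted p = 0.0551), the minimum mean of 5 CPM (0.0613) and without KO replicate 1 or 2 (0.115 and 0.0627). ZYX in T133A compared with KO (-0.31, edgeR adjusted p = 0.0316) was -0.028 with the GC and length correction (edgeR adjusted p = 0.793, and 0.812 with the block added) and -0.15 without T133A replicate 2 (edgeR adjusted p = 0.287). That call was also lost with only the compared groups (0.062), without WT replicate 2 (0.0501) and without KO replicate 2 (0.08). LIMD1 was also lower in T133A than in WT (-0.36, SE 0.104, edgeR adjusted p = 0.0292), a call lost with the replicate block (edgeR adjusted p = 0.0748) and without WT replicate 1 or 2 (0.254 and 0.259). The value was -0.22 with the GC and length correction (edgeR adjusted p = 0.0779, and 0.128 with the block added) and -0.30 without T133A replicate 2 (edgeR adjusted p = 0.0606).

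As a description only, the protein-coding genes outside the 10 whose log2 CPM followed YAP1 most closely over the 6 libraries were SLC35B4 (Pearson's r 0.997), PKNOX1 (0.992) and ABCD4 (0.992). Those closest to WWTR1 were GCFC2 (0.973), MED12L (0.971) and MGME1 (0.968). The 6 libraries fall into 3 groups, so high values are easily reached.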

How the data were processed

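RNA was sequenced from 6 A549 libraries in 3 groups of 2. Whole-number read counts per gene were deposited by the authors without normalization, beside FPKM values, which the deposited tables give per gene length and library size. Read alignment and counting tools are listed in the submitters' processing notes as HISAT2 2.0.5 and featureCounts 1.5.0, with the build GRCh38. For the strand setting and the annotation, nothing was given in the sources; of genes overlapping a member, only WWTR1-AS1 reached 10 counts, at most 0.431% of WWTR1. Names turned into dates (27) were restored by gene ID. The members and gene lists were chosen with earlier results of these data known.

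Counts were tested with edgeR 4.0.16 (R 4.3.3; filterByExpr, TMM, robust quasi-likelihood fit of all 6 libraries on group), two-sided, with Benjamini-Hochberg adjustment over 16340 genes and a threshold of 0.05. Standard errors and 95% intervals derive from the F statistic. The biological coefficient of variation was 8.96%, estimated over all groups together. The procedure was also run on simulated counts with the same spread in all libraries and no GC trend. That run cannot show how it behaves with replicates as unequal as these. Levels are CPM after TMM scaling. A count of 0 allows up to 3 counts, 0.16 to 0.184 CPM, for counting error only. All 10 members are described. From each pathway list up to 6 called genes with the smallest adjusted p were eligible to be named. CCN2, LATS1, STK3, STK4, VGLL1 and VGLL2 fall outside that rule, and were not followed gene by gene through the alternative runs. Alternatives were RLE or no scaling, DESeq2 1.42.0, limma-voom (limma 3.58.1), other filters, only the compared groups, a replicate block, GC and length offsets (loess span 0.5, GENCODE 29 transcripts, 99.95% of tested genes), a minimum log2 fold change of 1, and each library left out; a block with the T133A numbers crossed was chosen later, with the data in view. Figures were drawn with Python 3.11.15.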

Additional observations from a re-analysis of the deposited data

How the results depend on the processing

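AXL, AMOTL2, AJUBA and TEAD1 kept their calls in KO compared with WT in every alternative run other than a minimum log2 fold change of 1, which AXL passed too. Their log2 fold changes ran from 1.47 to 1.82, 0.45 to 0.69, 0.32 to 0.48 and -0.77 to -0.43. For T133A compared with WT, the number of the 10 genes called higher was 0 with library size only and with GC and length offsets, and the number called lower was 0 with DESeq2 and with a minimum mean of 5 CPM, which removed ANKRD1 from the test so that it has no value there. The number called lower was 2 with GC and length offsets, with or without the block, and the genes called over the whole table were 2466 with the offsets alone. In KO compared with WT, the minimum of 5 CPM left 1 member lower. With a minimum log2 fold change of 1, T133A compared with WT had 0 members higher and 431 genes called, KO compared with WT 1 higher, 1 lower and 2490 genes, and T133A compared with KO 0 higher, 1 lower and 2097 genes.

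Leaving out 1 library at a time, T133A compared with WT had 0 to 1 members higher, 0 to 1 lower and 763 to 2579 genes called. KO compared with WT had 1 to 2 members lower, and T133A compared with KO 1 to 2 higher. Each such fit leaves 1 library in a group, which is assumed to vary like the others. The replicates did not vary alike, with a chi-square per degree of freedom of 2.43 in WT, 9.75 in T133A and 11.7 in KO. Without a WT library only the T133A and KO pairs measure the spread. A call lost there need not mean a changed value. In T133A compared with WT, FAT1 was 0.33 with all libraries and 0.34 without WT replicate 1, and SAV1 was 0.68 and, without WT replicate 2, 0.52. With the replicate number as a block, T133A compared with KO had 2 members higher and 3 lower, against 3 and 4 without it, since YAP1 and TEAD4 lost their calls, and the genes called were 1419 in T133A compared with WT, 7165 in KO compared with WT and 6031 in T133A compared with KO. Same-numbered replicates did not deviate together (correlation -0.0515 for WT and T133A, 0.023 for WT and KO, -0.118 for T133A and KO), so the numbers are not taken to pair the libraries. With the T133A numbers crossed, a setting chosen after seeing the data, T133A compared with WT had 2 members lower and 2830 genes called.

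Signs turned in some runs for WWTR1, LATS2, ANKRD1 and HOXB9, and the cause was not tested. WWTR1 in T133A compared with KO (-0.11 with all libraries) turned only without T133A replicate 1. So did HOXB9 in T133A compared with WT (0.14 with all libraries). WWTR1 in T133A compared with WT became 0.0051 with GC and length offsets and 0.0018 with the block added, and ran from -0.26 to 0.071 with 1 library left out. In KO compared with WT it became -0.017 with library size only, -0.041 with the minimum of 5 CPM and -0.0062 with only the compared groups, and ran from -0.037 to 0.073 with 1 library left out. In T133A compared with KO it ran from -0.28 to 0.064. LATS2 in KO compared with WT ran from -0.14 to 0.0051, ANKRD1 in T133A compared with KO from -0.53 to 0.32 (positive without KO replicate 1), and HOXB9 in T133A compared with WT from -0.047 to 0.33. With 25 to 73 ANKRD1 counts per library, depth limits that gene most among the 10.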
